A study of Vitis vinifera with 36 samples.

Results

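The 9 genes described here carry out the last steps of anthocyanin formation in the grape berry and its delivery to the vacuole. They were chosen by gene identifier from the annotated pathway, with earlier results of these data known. Shares of all genes set beside their counts below describe the set and do not test it. These 9 are part of the 28119 genes listed in any library. They are DFR (VIT_218s0001g12800), LDOX (VIT_202s0025g04720), UFGT (VIT_216s0039g02230), AOMT (VIT_201s0010g03510), 3AT (VIT_203s0017g00870), GST4 (VIT_204s0079g00690) and 3 anthoMATE genes (VIT_216s0050g00900, VIT_216s0050g00910 and VIT_216s0050g00930, called g00900, g00910 and g00930 below). All 9 passed the filter on low counts.

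Anthocyanins are the red to blue pigments of grape skin and are made by the flavonoid pathway. DFR reduces dihydroflavonols to leucoanthocyanidins, LDOX oxidises these to the coloured but unstable anthocyanidins, and UFGT attaches a glucose that makes them stable. AOMT then methylates the B-ring and 3AT acylates the sugar, while GST4 and the anthoMATE proteins take part in moving the pigment into the vacuole. DFR and LDOX also feed the proanthocyanidin branch, whereas UFGT, AOMT, 3AT and GST4 are best known for their part in anthocyanins. In grapevine, UFGT is switched on by the MYBA transcription factors of the berry colour locus, which are inactive in white varieties.

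Messenger RNA was measured in 36 libraries from a double-cropping vineyard under rain shelter, where vines on SO4 rootstock are forced to fruit a second time each year. The groups crossed 2 varieties, the coloured 'Muscat Hamburg' (MH) and the white 'Victoria' (V), with the winter and the summer crop of the 2014 vintage and with 3 stages, namely the onset of veraison (E-L 35), the end of veraison (E-L 36) and harvest (E-L 38). Each of the 12 groups had 3 biological replicates, each made from 50 berries whose seeds were removed, so skin and flesh were ground together. In such bulk tissue a smaller share of skin cells and less RNA per skin cell cannot be told apart. Season is tied to the calendar, the temperature and the pruning of each crop, and to the hydrogen cyanamide given to start the winter crop.

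The libraries held 5624449 to 18606068 estimated counts (median 10599908.5), and 21184 to 23569 genes were listed in each. V summer E-L 35 was the deepest group, at 15334749 to 18606068 counts. No 2 replicates of a group were identical. In addition, 3 libraries stood nearer to a library of another stage than to their own group in the correlation of log-CPM values across genes, namely V summer E-L 36 replicate 1, V summer E-L 38 replicate 1 and MH summer E-L 36 replicate 1. In all 3 the nearest library came from the same variety and season, so they do not touch the assignment to variety or crop, and results that rest on them are given with and without them. Leaving out all 3 changed 4 of the calls on the 9 genes, each of which is named below. The seed and berry marker genes planned as a tissue check were not scored, because no annotation used here links them to these identifiers.

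Values below are FPKM (a level corrected by gene length and by library size), given for the 3 libraries of a group in ascending order. Differences are log2 fold changes with their standard error (SE) from edgeR's quasi-likelihood test over 19736 genes. A gene was called when its Benjamini-Hochberg adjusted p was at most 0.05 and its fold change at least 2. A group whose 3 libraries all had 3 counts or fewer was treated as being at the floor of detection, and a fold against it is a lower bound.

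**Figure D1:**
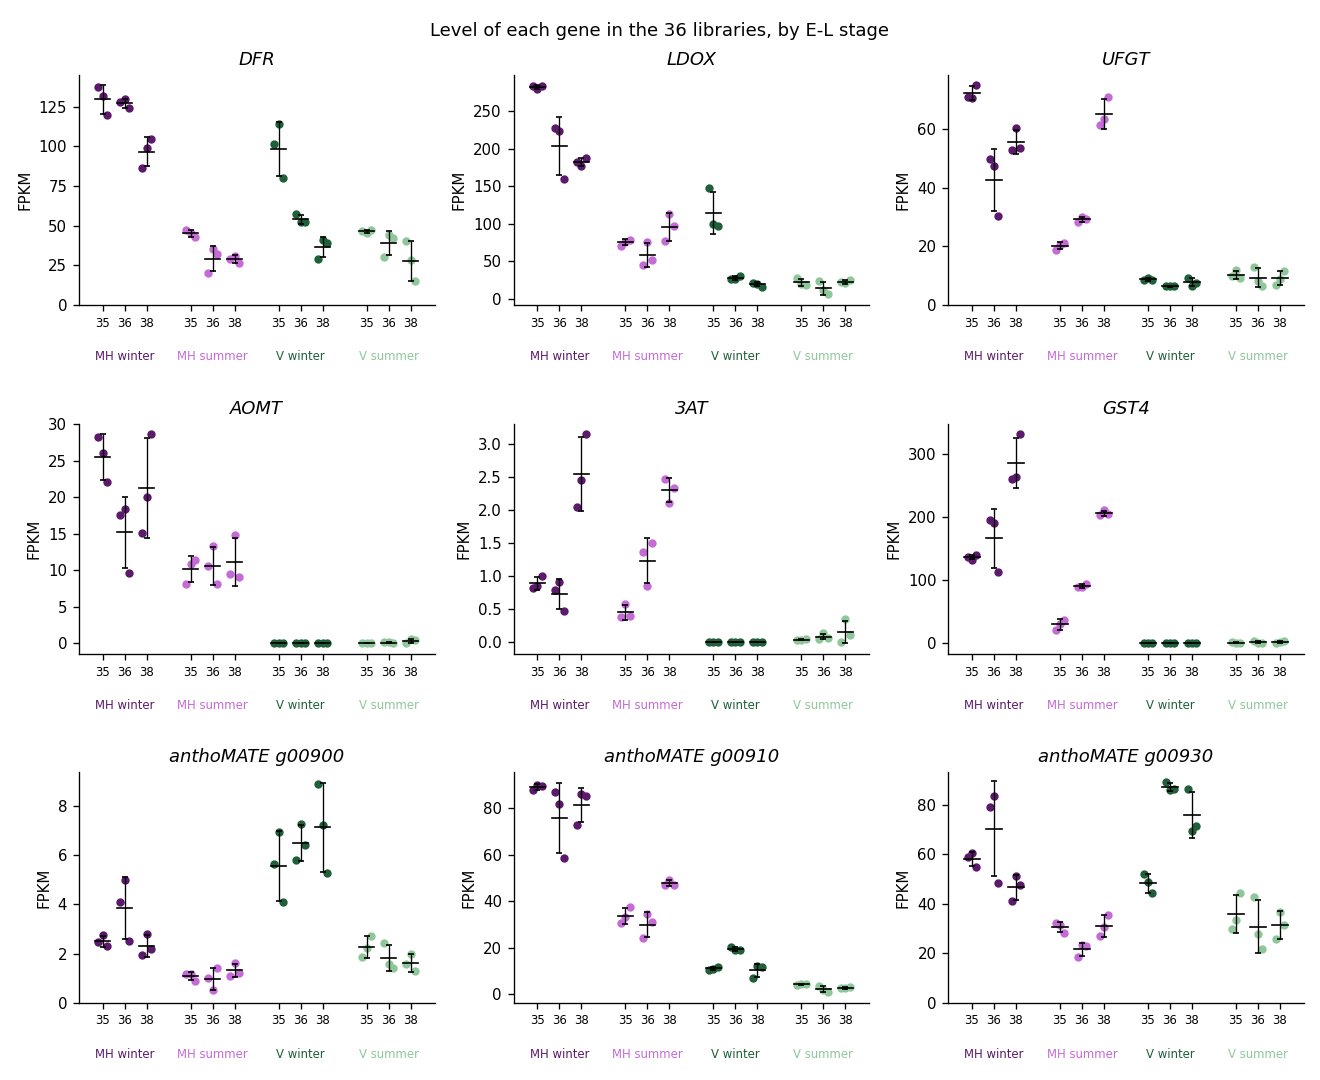
FPKM of the 9 genes (vertical axes, linear) in the 36 libraries, by variety, season and E-L stage (horizontal axes), with points for libraries, black lines for group means and bars for the SD (n = 3). AOMT, 3AT and GST4 lie near 0 in V in both seasons, while g00930 has a like range in MH (18.4 to 83.6 FPKM) and in V (21.9 to 89.2 FPKM).

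The first question was how the coloured variety differed from the white one. Of the 9 genes, 6 were higher in MH than in V at every stage of both crops, namely LDOX, UFGT, AOMT, 3AT, GST4 and g00910. DFR joined them in winter berries at E-L 36 and 38, g00930 passed the test nowhere, and g00900 was lower in MH winter berries at the first and the last stage. In summer berries the count higher in MH was 6 of 9 at E-L 35, 6 of 9 at E-L 36 and 6 of 9 at E-L 38, where 6.67%, 6.4% and 7.33% of all genes tested were called higher. In winter berries it was 6, 7 and 7 of 9 at the 3 stages, with 6.1%, 8.09% and 6.7% of all genes called higher. The single gene called lower, at winter E-L 35 and again at winter E-L 38, stands against 8.13% and 6.29% of all genes called lower. The median difference over the 9 genes lay between 1.99 and 3.08 on the log2 scale across the 6 comparisons, or between 1.95 and 3.04 with lower bounds in place of fitted values, against -0.03 to 0.01 over all genes.

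DFR, at the entry of the late pathway, was abundant in both varieties. At winter E-L 38 it had 86.6, 98.7 and 105 FPKM in MH, against 29.3, 39.0 and 41.0 FPKM in V. At winter E-L 36 it had 124, 128 and 130 FPKM in MH, against 52.4, 52.4 and 57.3 FPKM in V. The ranges did not overlap at either stage, and MH was higher by 1.48 ± 0.22 (SE, adjusted p = 5.18e-06) in the first comparison and by 1.28 ± 0.21 (adjusted p = 2.4e-05) in the second. In summer berries DFR did not pass the test at any stage. At summer E-L 35, for example, MH had 43.0, 45.3 and 47.3 FPKM and V had 45.4, 46.8 and 47.5 FPKM, and these ranges overlapped.

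LDOX, the next step, was higher in MH in all 6 comparisons. At winter E-L 38 it had 178, 183 and 188 FPKM in MH, against 16.2, 20.4 and 21.2 FPKM in V. At winter E-L 35 it had 279, 284 and 284 FPKM in MH, against 97.2, 100.1 and 147 FPKM in V. Every MH library was above every V library in both cases. The log2 difference was 1.35 ± 0.25 (adjusted p = 0.000135), 2.88 ± 0.27 and 3.30 ± 0.27 (adjusted p = 2.39e-10) at winter E-L 35, 36 and 38, and it lay between 1.99 and 2.09 at the 3 summer stages. At summer E-L 36 the value of 2.09 became 2.70 without V summer E-L 36 replicate 1 and 2.83 without the 3 libraries that stood nearer to another stage.

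UFGT, the glucosylation step, was present in V at a low and even level. Its 18 V libraries ranged between 6.35 and 13.0 FPKM, whereas the 18 MH libraries ranged between 18.8 and 75.0 FPKM, so the varieties did not overlap in any season or stage. At summer E-L 35 MH had 18.8, 20.6 and 21.2 FPKM, against 9.12, 10.1 and 11.9 FPKM in V. There the difference was 1.25 ± 0.17 (adjusted p = 1.11e-06), the smallest of the 6, and it fell under the 2-fold criterion when library size alone was used for scaling (0.96) or limma was run on log2(FPKM + 1) (0.91) or log2(FPKM + 0.1) (0.96). Scaling by library size moved the median of all genes to -0.31 in that comparison. At summer E-L 38 the difference was 2.83 ± 0.18 and at winter E-L 35 it was 3.12 ± 0.18 (adjusted p = 4.31e-13).

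The decoration genes were close to undetectable in V. AOMT, the B-ring methyltransferase, had 8.08 to 28.7 FPKM over the 18 MH libraries and was at 0 in 11 of the 18 V libraries, with at most 5.85 counts in the others. In 5 of the 6 comparisons V was at the floor, and AOMT was at least 47.9-fold to at least 80.8-fold higher in MH. At summer E-L 38, the comparison that could be fitted, MH had 9.10, 9.49 and 14.9 FPKM, against 0.08, 0.46 and 0.59 FPKM in V, a difference of 4.87 ± 0.43 (adjusted p = 3.14e-09). In 24 libraries the AOMT count was not a whole number, as arises when reads are shared with a similar gene, so its level carries that uncertainty.

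3AT, the acyltransferase, had the lowest median of the 9 over the 36 libraries (0.36 FPKM). Its level over the MH libraries was 0.38 to 3.15 FPKM (9 to 61 counts), and 10 of the 18 V libraries were at 0. It was at least 3.86-fold to at least 13.7-fold higher in MH in the 5 comparisons in which V was at the floor. At summer E-L 38 MH had 2.10, 2.33 and 2.47 FPKM, against 0, 0.11 and 0.34 FPKM in V, and the difference was 3.99 ± 0.48 (adjusted p = 6.05e-07). It became 5.25 without V summer E-L 38 replicate 2 and 3.37 without V summer E-L 38 replicate 1. Because of these low counts the size of the 3AT difference is known only roughly.

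GST4, the glutathione S-transferase of anthocyanin transport, showed the widest gap between the varieties among the genes with a fitted value. At winter E-L 38 it had 262, 265 and 332 FPKM in MH, against 0.18, 0.37 and 1.01 FPKM in V. At summer E-L 35, where MH was lowest, it had 20.9, 31.3 and 37.6 FPKM in MH, against 0.45, 0.91 and 1.46 FPKM in V. The log2 difference was 5.28 ± 0.45, 5.61 ± 0.44 and 6.63 ± 0.45 at the 3 summer stages, and 8.25 ± 0.55, 9.23 ± 0.57 and 9.10 ± 0.54 at the 3 winter stages (adjusted p = 3.02e-10 or lower). The value at summer E-L 36 became 7.27 without V summer E-L 36 replicate 1, and that at winter E-L 38 became 10.05 without V winter E-L 38 replicate 3. Unlike AOMT and 3AT, GST4 was at the floor in no V group: counts above 3 were found in 16 of the 18 V libraries. However, the V winter libraries had only 0 to 14 counts (median 5). The size of the winter differences, and of their gap to the summer ones, is therefore known only roughly.

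The 3 anthoMATE genes differed from each other. g00910 had 24.2 to 90.0 FPKM in the MH libraries, against 1.14 to 20.5 FPKM in V libraries, and its differences lay between 1.99 ± 0.20 (winter E-L 36, adjusted p = 9.48e-09) and 4.08 ± 0.24 (summer E-L 38, adjusted p = 1.8e-13). At summer E-L 36 the g00910 value of 3.82 became 4.49 without V summer E-L 36 replicate 1. g00900 was of low level, with 0.50 to 4.99 FPKM in MH, against 1.29 to 8.90 FPKM in V, and it was lower in MH by -1.05 ± 0.26 at winter E-L 35 and -1.52 ± 0.26 (adjusted p = 4.11e-05) at winter E-L 38. Summer differences of g00900 did not pass, but at E-L 36 it did so without MH summer E-L 36 replicate 3 (-1.17), and at E-L 35 with scaling by library size (-1.06). The call at winter E-L 35 was lost without V winter E-L 35 replicate 2 (-0.89), without MH winter E-L 35 replicate 3 (-0.99) and with limma on log2(FPKM + 1) (-0.88). g00930 did not pass at any stage, and its strongest difference was -0.61 ± 0.18 at winter E-L 38 (adjusted p = 0.0112), under the 2-fold criterion.

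**Figure D2:**
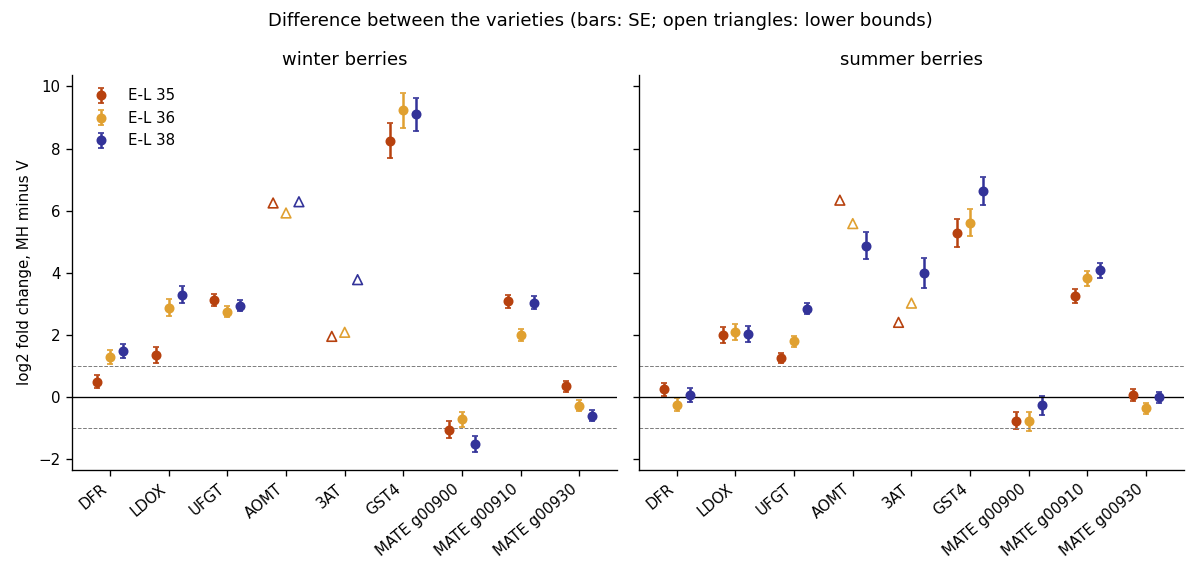
Log2 fold change of MH over V for the 9 genes in winter (left) and summer berries (right), coloured by E-L stage, with filled points for fitted values and their SE, open triangles for lower bounds where V was at the floor, and dashed lines at a 2-fold difference. GST4 lies highest in winter berries (8.25 to 9.23), while g00930 stays within the dashed lines at every stage.

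Together the 3 anthoMATE genes had 43.6 to 171 FPKM in MH libraries, against 24.4 to 115 FPKM in V libraries, but the make-up of that sum differed. g00910 supplied 48.0% to 63.2% of it in MH (median 57.5%), against 4.67% to 19.8% in V (median 11.3%). g00930 supplied 35.2% to 50.1% in MH, against 73.2% to 89.5% in V. For neither gene did the 18 MH libraries overlap the 18 V libraries in this share. g00900 supplied 0.85% to 2.92% in MH, against 3.57% to 10.5% in V. With the counts of the 3 genes added before the test, the sum was higher in MH at summer E-L 38 (1.11 ± 0.17) and winter E-L 35 (1.24 ± 0.17), and it was under the 2-fold criterion in the other 4 comparisons (0.40 to 0.87). Counts of g00900 and g00910 were not whole in any library, nor were those of g00930 in 34 libraries, as arises when reads are divided among similar genes, so the split between them is uncertain.

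**Figure D3:**
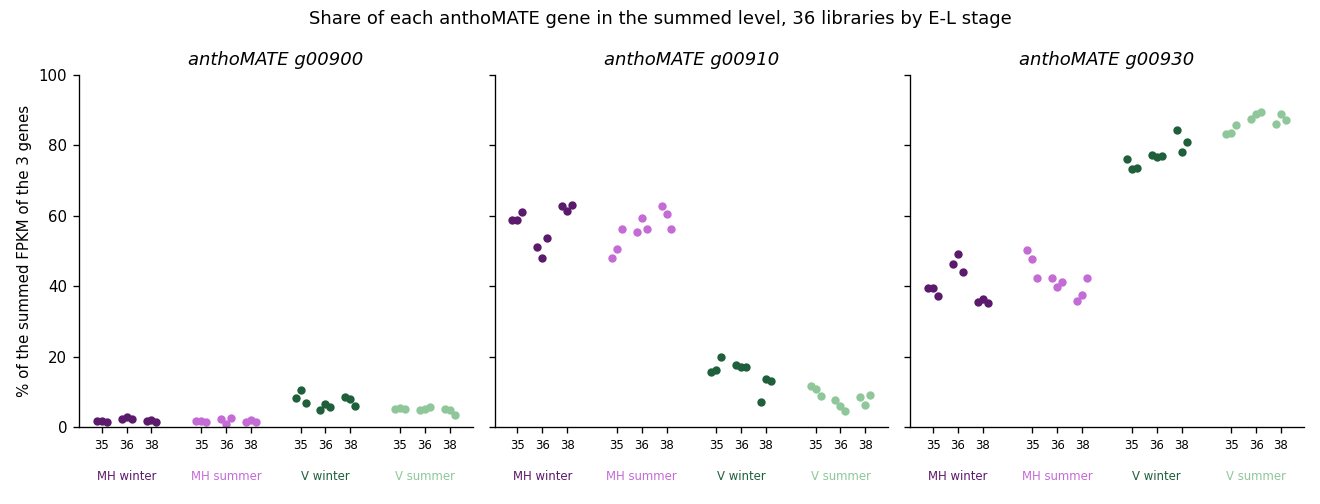
Share of each anthoMATE gene in the summed FPKM of the 3 genes (vertical axes, percent) in the 36 libraries, by variety, season and E-L stage. The points for g00910 lie at 48.0% to 63.2% in MH and at 4.67% to 19.8% in V, and those for g00930 at 35.2% to 50.1% in MH and 73.2% to 89.5% in V.

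The second question was how winter berries differed from summer berries of the same variety. In MH at E-L 35, 7 of the 9 genes were higher in winter berries (all but 3AT and g00930), against 4.1% of all genes tested. At E-L 36 the count was 5 of 9 (DFR, LDOX and the 3 anthoMATE genes), against 9.5% of all genes. At E-L 38 it was 1 of 9 (DFR), against 8.66% of all genes, a share close to that background. None of the 9 was called lower in MH winter berries at any stage, against 1.82%, 8.78% and 10.7% of all genes at E-L 35, 36 and 38. For a set of 9 genes this is close to that background. The median log2 difference of the 9 genes was 1.35, 1.25 and 0.83 at E-L 35, 36 and 38, against 0.00, -0.02 and 0.00 over all genes.

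DFR was higher in MH winter berries at all 3 stages. At E-L 35 it had 120, 132 and 138 FPKM in winter berries, against 43.0, 45.3 and 47.3 FPKM in summer berries. At E-L 38 it had 86.6, 98.7 and 105 FPKM in winter berries, against 26.3, 29.2 and 31.2 FPKM in summer berries. The seasons did not overlap, and the differences were 1.47 ± 0.21, 2.05 ± 0.22 (adjusted p = 2.43e-08) and 1.80 ± 0.22 at E-L 35, 36 and 38. LDOX was higher by 1.85 ± 0.25 at E-L 35 and 1.72 ± 0.25 at E-L 36. At E-L 38 it had 178, 183 and 188 FPKM in winter berries, against 76.7, 97.1 and 113 FPKM in summer berries, which did not overlap, yet the difference of 0.99 ± 0.25 (adjusted p = 0.00179) was just under the 2-fold criterion.

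UFGT differed between the seasons in MH mainly at the onset of veraison. At E-L 35 it had 70.7, 70.8 and 75.0 FPKM in winter berries, against 18.8, 20.6 and 21.2 FPKM in summer berries, a difference of 1.79 ± 0.17 (adjusted p = 4.78e-08). At E-L 36 it had 30.4, 47.5 and 49.6 FPKM in winter berries, against 28.4, 29.2 and 29.9 FPKM in summer berries (0.45 ± 0.17, under the 2-fold criterion). At E-L 38 it had 53.0, 53.4 and 60.2 FPKM in winter berries, against 61.3, 63.3 and 70.9 FPKM in summer berries. There the winter libraries lay below the summer ones, but the test gave -0.17 ± 0.16 (adjusted p = 0.424). GST4 at E-L 35 had 133, 138 and 140 FPKM in winter berries, against 20.9, 31.3 and 37.6 FPKM in summer berries (2.14 ± 0.34, adjusted p = 6.78e-05), and the later differences of 0.77 ± 0.33 (E-L 36) and 0.53 ± 0.33 (E-L 38) did not pass. Its winter libraries still lay above the summer ones, at 113 to 195 against 89.2 to 94.5 FPKM at E-L 36, with 262 to 332 against 204 to 211 FPKM at harvest.

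AOMT and 3AT differed less evenly between the seasons in MH. AOMT had 22.2, 26.1 and 28.3 FPKM in MH winter berries at E-L 35, against 8.14, 10.9 and 11.5 FPKM in summer berries, a difference of 1.27 ± 0.28 (adjusted p = 0.0022). At E-L 38 its difference of 0.99 ± 0.28 (adjusted p = 0.0054) was just under the 2-fold criterion, and single libraries decided the call. Without MH summer E-L 38 replicate 2 it was 1.28, and the count of genes higher in winter berries at E-L 38 became 4 (AOMT, LDOX and g00900 beside DFR). Without MH winter E-L 38 replicate 1 AOMT had 1.16 and the count was 2, and without MH winter E-L 38 replicate 2 AOMT had 1.04, LDOX 1.03 and the count was 3. 3AT did not pass at any stage in MH, with differences of 0.91 ± 0.41 at E-L 35 and -0.85 ± 0.38 at E-L 36. Leaving out MH summer E-L 36 replicate 2 moved its E-L 36 value to -1.06 and past the threshold.

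Among the transporters, g00910 was higher in MH winter berries by 1.35 ± 0.19 at E-L 35 and 1.25 ± 0.20 at E-L 36. g00900 was higher by 1.16 ± 0.28 and 1.92 ± 0.29 at these stages, the first of which did not hold with limma on log2(FPKM + 1) (0.75). g00930 was higher by 1.61 ± 0.19 (adjusted p = 8.03e-08) at E-L 36. At E-L 38 the differences of the 3 genes were 0.65 to 0.87, under the 2-fold criterion. One library stood apart in this set: MH winter E-L 36 replicate 3 had the lowest value of its group in LDOX (160 FPKM against 224 and 228 FPKM), UFGT (30.4 against 47.5 and 49.6 FPKM) and GST4 (113 against 191 and 195 FPKM), and in the 6 other genes as well.

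In V winter berries at E-L 35, 4 of the 9 genes were higher than in V summer berries (DFR, LDOX, g00900 and g00910), against 8.38% of all genes tested. At E-L 36 the 3 anthoMATE genes were higher, against 9.82% of all genes, and 1 gene (GST4) was lower, against 13.2%. At E-L 38 the 3 anthoMATE genes were again higher, against 10.6% of all genes, and GST4 was lower, against 15.4%. AOMT and 3AT were at the floor in both seasons up to the end of veraison and were not evaluated there, and neither passed at harvest.

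LDOX had 97.2, 100.1 and 147 FPKM in V winter berries at E-L 35, against 18.3, 20.0 and 27.7 FPKM in V summer berries. The difference was 2.49 ± 0.26 (adjusted p = 3.53e-08). At E-L 38 LDOX had 16.2, 20.4 and 21.2 FPKM in winter berries, against 20.6, 22.4 and 25.0 FPKM in summer berries, and the ranges overlapped. At E-L 36 the difference was 0.93 ± 0.26 and under the 2-fold criterion, but it was 1.54 (adjusted p = 5e-06) without V summer E-L 36 replicate 1 and 1.51 without the 3 libraries that stood nearer to another stage. It also passed with limma on log2(FPKM + 1) (1.06) and on log2(FPKM + 0.1) (1.12). DFR was higher by 1.23 ± 0.21 (adjusted p = 3.84e-05) at E-L 35 and did not pass at E-L 36 (0.52 ± 0.21). UFGT did not pass at any stage in V. Its difference at E-L 36 was -0.51 ± 0.18 (adjusted p = 0.0212), under the 2-fold criterion, with 6.35, 6.37 and 6.61 FPKM in winter berries, against 6.63, 8.32 and 13.0 FPKM in summer berries.

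The anthoMATE genes were the ones that were higher in V winter berries through to harvest. g00910 was higher by 1.51 ± 0.22, 3.09 ± 0.24 (adjusted p = 4.85e-11) and 1.88 ± 0.24 at the 3 stages in turn. Its E-L 36 libraries had 19.0, 19.2 and 20.5 FPKM in winter berries, against 1.14, 1.88 and 3.77 FPKM in summer berries, without overlap. g00900 was higher by 1.44 ± 0.25, 1.85 ± 0.26 and 2.12 ± 0.27 at the 3 stages, the first of which was 0.99 with limma on log2(FPKM + 1). g00930 was higher by 1.53 ± 0.18 (E-L 36) and 1.25 ± 0.18 (harvest), and its 0.59 ± 0.18 at the onset of veraison was under the 2-fold criterion.

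GST4 in V was low in both seasons and was called lower in winter berries at the last 2 stages. At E-L 36 it had 0, 0.36 and 0.50 FPKM in winter berries, against 0.62, 0.71 and 4.40 FPKM in summer berries (-2.85 ± 0.76, adjusted p = 0.00247). The highest of these was V summer E-L 36 replicate 1, one of the libraries nearer to another stage. Without it the difference was -1.19 (adjusted p = 0.243), and without all 3 such libraries it was -1.23 (adjusted p = 0.218). At E-L 38 it had 0.18, 0.37 and 1.01 FPKM in winter berries, against 0.89, 2.55 and 2.88 FPKM in summer berries, and the ranges overlapped. The difference of -1.94 ± 0.68 (adjusted p = 0.018) was lost on leaving out any one of 4 libraries: V summer replicate 2 (-1.79) or 3 (-1.60), or V winter replicate 1 (-1.53) or 2 (-1.74).

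**Figure D4:**
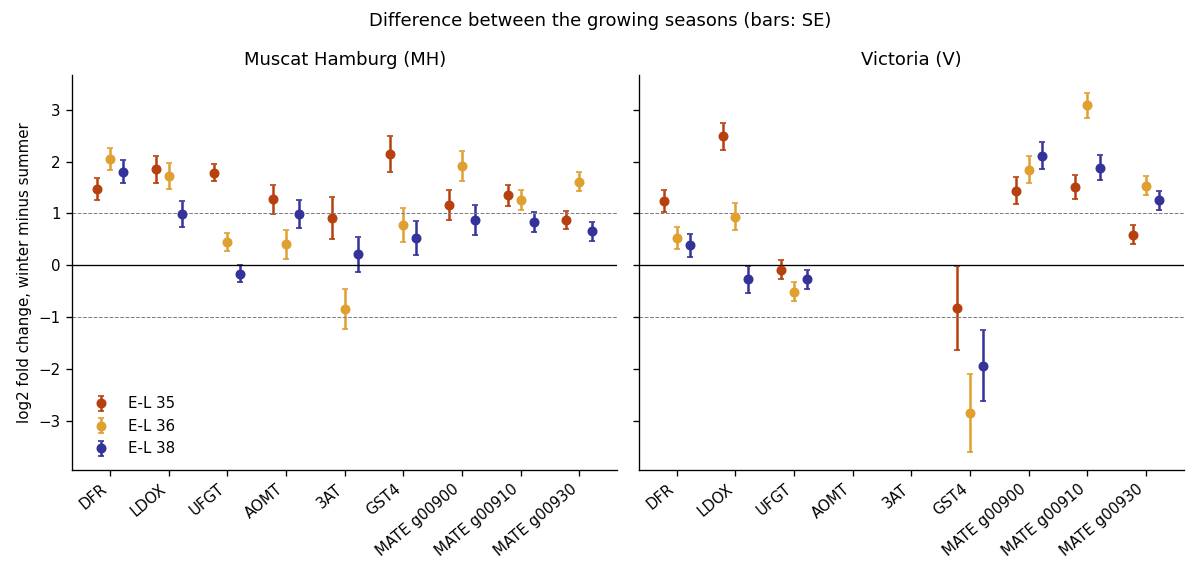
Log2 fold change of winter over summer berries for the 9 genes in MH (left) and V (right), coloured by E-L stage, with bars for the SE and dashed lines at a 2-fold difference; AOMT and 3AT in V have no fitted value. UFGT and GST4 are above the upper line only at E-L 35 in MH (1.79 and 2.14), and the 3 anthoMATE genes are above it at E-L 36 in both varieties.

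The third question was whether the season difference itself differed between the varieties, tested as the season difference in MH minus that in V. A larger one in MH is here a higher signed value, also where the value in V is negative. AOMT and 3AT could not be evaluated because V was at the floor. At E-L 35, 2 genes had a larger season difference in MH, against 4.87% of all genes: GST4 (2.97 ± 0.83, adjusted p = 0.0135) and UFGT (1.87 ± 0.25, adjusted p = 9e-06). At E-L 36, GST4 (3.62 ± 0.82) and DFR (1.53 ± 0.30, adjusted p = 0.000646) had a larger one in MH, against 5.47% of all genes, while g00910 had a smaller one (-1.84 ± 0.31, adjusted p = 0.000108), against 3.9%. At E-L 38, 3 genes had a larger one in MH (GST4 2.47 ± 0.76, DFR 1.42 ± 0.30 and LDOX 1.26 ± 0.36), against 4.01% of all genes, and 2 had a smaller one (g00900 -1.25 ± 0.39 and g00910 -1.05 ± 0.31), against 3.2%.

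Several of these calls rested on single libraries. The GST4 call at E-L 35 was lost without V summer E-L 35 replicate 1 (2.49, adjusted p = 0.0659), and that at E-L 36 without V summer E-L 36 replicate 1 (1.96, adjusted p = 0.105) or without the 3 libraries nearer to another stage (2.00). At E-L 38 the GST4 call was lost without V summer replicate 2 or 3 or V winter replicate 1 or 2 (2.07 to 2.32), and that of LDOX without MH summer replicate 1 (1.11, adjusted p = 0.0507). The g00900 call at this stage was lost without V summer replicate 1 or 3, V winter replicate 1 or 2, MH summer replicate 2 or MH winter replicate 1 or 3 (-1.05 to -1.22). The g00910 call was lost without V summer replicate 1, V winter replicate 2 or 3, MH summer replicate 2 or MH winter replicate 1, the weakest value being -0.88, and without the 3 libraries nearer to another stage (-0.97). Without V summer E-L 36 replicate 3, LDOX (1.12) and UFGT (1.16) also passed at E-L 36, for a count of 4. LDOX passed there without MH summer E-L 36 replicate 2 as well (1.05), and UFGT without V summer E-L 36 replicate 2 (1.06), without MH winter E-L 36 replicate 3 (1.10) and with scaling by library size (1.08). The UFGT call at E-L 35, the g00910 call at E-L 36 and both DFR calls held in every fit that left out a library.

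The fourth question was what changed between the onset of veraison and harvest, as E-L 38 minus E-L 35. In MH summer berries 3 of the 9 genes were higher at harvest, against 5.13% of all genes tested: GST4 (2.78 ± 0.35, adjusted p = 7.61e-07), 3AT (2.32 ± 0.38, adjusted p = 6.48e-05) and UFGT (1.68 ± 0.17, adjusted p = 2.52e-08). GST4 had 204, 205 and 211 FPKM at E-L 38, against 20.9, 31.3 and 37.6 FPKM at E-L 35. In MH winter berries 2 genes were higher at harvest, against 6.28% of all genes, 3AT (1.62 ± 0.37, adjusted p = 0.000888) and GST4 (1.17 ± 0.33, adjusted p = 0.00455), whereas UFGT was not called. The GST4 call was lost with DESeq2 (1.15, adjusted p = 0.0836) and with limma on log2(FPKM + 0.1) (1.06), and that of 3AT was under 2-fold with limma on log2(FPKM + 1) (0.90).

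In V summer berries 2 genes were higher at harvest, against 6.11% of all genes. AOMT had 0.08, 0.46 and 0.59 FPKM at harvest, against 0, 0 and 0.06 FPKM at the onset of veraison, where it was at the floor, and was higher at harvest by a factor of at least 2.96 (adjusted p = 0.00292). GST4 was higher by 1.43 ± 0.55 (adjusted p = 0.0352), a call lost without V summer E-L 35 replicate 2 (1.08) or 3 (1.42) and without V summer E-L 38 replicate 2 (1.29) or 3 (1.09). Neither gene was called with limma on log2(FPKM + 1) or when only the libraries compared were fitted. In V winter berries 2 genes were lower at harvest, against 16.6% of all genes: LDOX (-2.46 ± 0.27, adjusted p = 1.43e-08) and DFR (-1.32 ± 0.22, adjusted p = 1.01e-05). DFR had 29.3, 39.0 and 41.0 FPKM at E-L 38, against 80.1, 101.3 and 114 FPKM at E-L 35, without overlap.

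The season difference at harvest was also set against that at the onset of veraison. In MH it was smaller at E-L 38 for 2 genes, against 8.25% of all genes: UFGT (-1.96 ± 0.24, adjusted p = 6.31e-07) and GST4 (-1.61 ± 0.47, adjusted p = 0.0107). The GST4 call did not hold with DESeq2 (-1.62, adjusted p = 0.111) or with limma on log2(FPKM + 0.1) (-1.77, adjusted p = 0.12). Without MH summer E-L 38 replicate 1, LDOX (-1.01) passed in MH as well. In V the season difference was smaller at E-L 38 for 1 gene, LDOX (-2.75 ± 0.37, adjusted p = 9.35e-07), against 13.6% of all genes, and without V summer E-L 38 replicate 3 DFR (-1.15) passed as well.

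Ordered by mean level over the 12 groups, UFGT was highest in MH winter E-L 35 (72.2 ± 2.4 FPKM, SD, n = 3) and MH summer E-L 38 (65.2 ± 5.1 FPKM), whose ranges overlapped. MH winter E-L 38 (55.5 ± 4.0 FPKM), MH winter E-L 36 (42.5 ± 10.5 FPKM), MH summer E-L 36 (29.2 ± 0.77 FPKM) and MH summer E-L 35 (20.2 ± 1.2 FPKM) followed without overlap between neighbours, and the 6 V groups came last and overlapped with their neighbours. GST4 was highest at harvest, in MH winter E-L 38 (286 ± 39.9 FPKM) and then MH summer E-L 38 (207 ± 3.9 FPKM). DFR was highest in winter groups of both varieties, with V winter E-L 35 (98.5 ± 17.1 FPKM) above MH winter E-L 38 (96.8 ± 9.3 FPKM), which it overlapped. However, V winter E-L 38 (36.4 ± 6.3 FPKM) stood below V summer E-L 35 (46.6 ± 1.1 FPKM). g00900 and g00930 were highest in V winter groups, at E-L 38 (7.13 ± 1.82 FPKM) and at E-L 36 (87.1 ± 1.7 FPKM).

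The levels of methylation and acylation genes were also read relative to UFGT within MH, where all 3 were measured. AOMT reached 29.5, 36.9 and 39.9 FPKM per 100 UFGT FPKM in winter berries at E-L 35, against 43.3, 52.9 and 54.2 in summer berries. At E-L 38 the order turned, with 28.4, 33.3 and 53.7 in winter berries, against 12.8, 15.5 and 23.5 in summer berries. Neither pair overlapped, and at E-L 36 the seasons overlapped. 3AT reached 1.14, 1.20 and 1.33 FPKM per 100 UFGT FPKM in winter berries at E-L 35, against 1.84, 2.02 and 2.82 in summer berries, and 1.55, 1.57 and 1.92 at E-L 36, against 2.81, 4.79 and 5.13 in summer berries. At E-L 38 the 3AT ranges overlapped, with 3.85, 4.07 and 5.90 in winter berries, against 3.29, 3.32 and 4.03 in summer berries. The 4 comparisons without overlap gave p = 0.1 in a two-sided exact permutation test, the smallest that 3 against 3 libraries allow, and 0.15 after adjustment over the 6 tested, so none could pass.

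**Figure D5:**
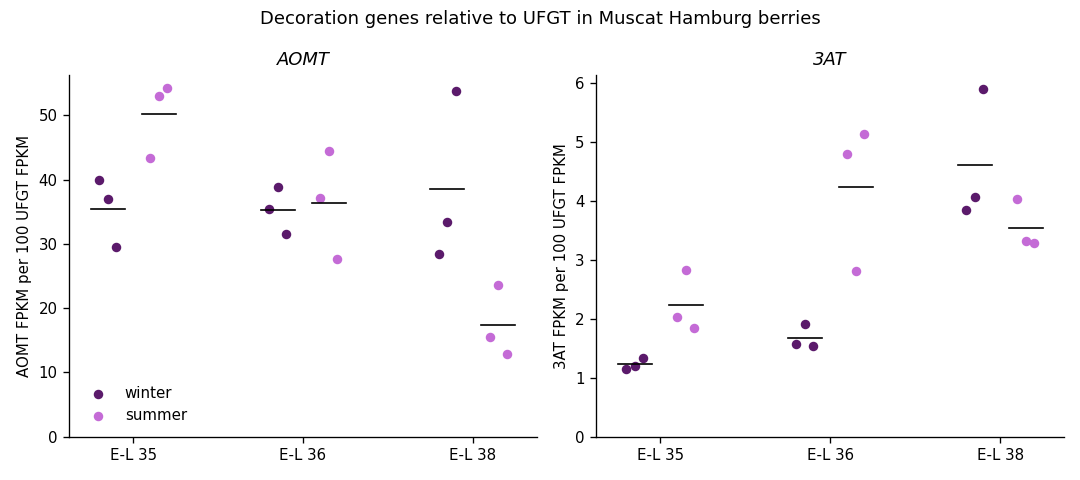
FPKM of AOMT (left) and 3AT (right) per 100 UFGT FPKM in MH berries at the 3 E-L stages, with points for libraries and lines for the means (n = 3), winter to the left of summer at each stage. For AOMT the winter points lie below the summer points at E-L 35 (29.5 to 39.9 and 43.3 to 54.2) and above them at E-L 38 (28.4 to 53.7 and 12.8 to 23.5).

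Across the 12 group means, on the log2(FPKM + 1) scale, UFGT varied most closely with GST4 (Pearson r = 0.97), AOMT (r = 0.95) and 3AT (r = 0.90), and little with DFR (r = 0.37) or g00930 (r = -0.13). These values describe 12 points that share variety, season and stage. Among the 6 MH groups alone the order was another: UFGT gave r = 0.84 with GST4, 0.76 with g00910, 0.70 with LDOX, 0.69 with AOMT and 0.59 with 3AT. DFR and LDOX gave r = 0.93 in these 6 groups. The 5 genes other than members with the pattern most like UFGT were VIT_218s0001g09400, VIT_208s0007g03560, VIT_206s0009g03010, VIT_200s0269g00020 and VIT_206s0009g02830 (r = 0.96 to 0.97), of which VIT_206s0009g03010 and VIT_206s0009g02830 are F3'5'H genes, the B-ring hydroxylases that lead to blue anthocyanins. For GST4 they were VIT_207s0151g00400, VIT_200s0407g00040, VIT_200s0187g00270, VIT_200s0218g00210 and VIT_212s0034g02450 (r = 0.98), for which the sources used here give no name.

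The other flavonoid genes, 27 taken from the study's list of annotated pathway genes, gave the setting. Of the 14 early genes (CHS, CHI, F3H, F3'H and F3'5'H) 7, 6 and 8 were higher in MH than in V in summer berries at E-L 35, 36 and 38, against 6.67%, 6.4% and 7.33% of all genes. In winter berries it was 5, 7 and 10, against 6.1%, 8.09% and 6.7% of all genes. At summer E-L 36 only 12 of the 14 could be evaluated. At winter E-L 36 and 38, 1 and 2 were lower in MH, against 7.81% and 6.29% of all genes, the first close to that background. The CHS gene VIT_205s0136g00260 (2.67 to 4.89 on the log2 scale) and 3 of the 6 F3'5'H genes (VIT_206s0009g02830, VIT_206s0009g03000 and VIT_206s0009g03010) were called in all 6 comparisons. The other 3 F3'5'H genes were called in some of them, while of the 2 CHI genes one was called at winter E-L 38 (VIT_213s0067g02870, 1.33) and the other nowhere. In MH winter berries 9, 10 and 9 of the 14 were higher than in MH summer berries, against 4.1%, 9.5% and 8.66% of all genes. In V winter berries 8, 4 and 5 were higher, of 13, 10 and 11 that could be evaluated, against 8.38%, 9.82% and 10.6%. At E-L 36 in V, 1 was lower, against 13.2% of all genes. Of the 4 genes annotated like DFR or LDOX, 0 to 1 were higher in MH and 0 to 2 were lower, depending on season and stage. Of all genes, 6.1% to 8.09% were called higher and 6.29% to 12.1% lower in these 6 comparisons. VIT_215s0048g01000, annotated like DFR, was lower in MH by -4.45 at summer E-L 36, where DFR itself did not pass. The 6 genes of the flavonol and proanthocyanidin branches (FLS, LAR and ANR) were mixed too. Of these, 0 to 2 were higher in MH and 0 to 2 were lower, against the same shares of all genes.

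MYBA1 (VIT_202s0033g00410), an activator of UFGT, had 11.9 to 20.7 FPKM in MH summer berries and 20.6 to 71.6 FPKM in MH winter berries, whereas no V library exceeded 0.63 FPKM. It was higher in MH winter than in MH summer berries at E-L 35 (1.58) and E-L 36 (2.13), and not at E-L 38 (0.26). MYBA2 (VIT_202s0033g00390) varied with crop and stage in V. At summer E-L 35 it had 33.3, 36.9 and 42.0 FPKM in MH, against 2.64, 3.39 and 3.63 FPKM in V, and was called higher in MH (3.83), the only one of the 6 comparisons of the varieties in which it was called. At winter E-L 36 it had 158, 162 and 174 FPKM in MH, against 239, 242 and 250 FPKM in V. MYBA3 (VIT_202s0033g00450) ranged between 6.01 and 255 FPKM in MH libraries and between 1.08 and 141 FPKM in V libraries. Counts of the 3 MYBA genes were not whole in any library that listed them, so the split of reads among them is uncertain too.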

How the data were processed

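Libraries were grouped by the variety, season and stage in their labels. The reads were 50-bp single reads from Illumina sequencing of RNA from 36 libraries, aligned by the authors to the 12X V2 grapevine genome with at most 2 mismatches. Bowtie is named in the submitters' processing notes without a version, and the counting program is not given in the sources used here. The deposited estimated counts per gene are not always whole, as arises when reads are divided among similar genes. The FPKM values were computed by the authors per gene length and library, and for 8208 of 8597 genes that have more than 1 transcript the length in the files varied from library to library (LDOX among the members). A gene missing from a library's list was taken as 0. Another deposited table, with 36 columns that match no label, was not used.

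Estimated counts were rounded, scaled by TMM and tested with edgeR 4.0.16 (R 4.3.3), using the quasi-likelihood test with 12 group means, filterByExpr (19736 genes kept) and Benjamini-Hochberg adjustment over all genes tested, in 21 comparisons. The SE was taken from the log2 value and the F statistic. A floor of 3 counts per library was used, and a contrast of 4 groups with one of them at the floor was not evaluated. The fit was tested on simulated data. Alternatives were DESeq2 1.42.0, limma 3.58.1 on log2(FPKM + 1) and log2(FPKM + 0.1), other scalings and filters, a replicate block, smaller fits and leaving out each library. The p-values measure the spread between these replicates. Same-numbered replicates did not deviate together (r of -0.19 to 0.16 over 16 comparisons). Members and gene lists were chosen with earlier results of these data known. Genes named were the members, the 27 listed pathway genes and the 5 genes most like UFGT and GST4. The files give no coordinates for these identifiers, and no sequence was read.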

Additional observations from a re-analysis of the deposited data

Results flagged for a closer look

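The season difference in MH minus that in V (log2 scale) was called by the interaction test for some of the 7 members evaluated. Of these, 2 were larger in MH at E-L 35. At E-L 36, 2 were larger and 1 was smaller, and at E-L 38, 3 were larger and 2 were smaller. At E-L 35 the value was 2.97 for GST4 and 1.87 for UFGT. At E-L 36 it was 3.62 for GST4, 1.53 for DFR and -1.84 for anthoMATE g00910. At E-L 38 it was 2.47 for GST4, 1.42 for DFR, 1.26 for LDOX, -1.25 for anthoMATE g00900 and -1.05 for anthoMATE g00910. Of all genes, 4.87%, 5.47% and 4.01% were called larger in MH at the 3 stages, and 3.9% and 3.2% smaller at E-L 36 and 38. The GST4 calls, and those of LDOX, g00900 and g00910 at E-L 38, were lost on leaving out single libraries. At E-L 36 and 38 GST4 was called lower in V winter than in V summer berries (-2.85 and -1.94). Its MH season differences (0.77 and 0.53) did not pass there.

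The season difference also differed between harvest and the onset of veraison (E-L 38 minus E-L 35). In MH this was -1.96 for UFGT and -1.61 for GST4, and in V it was -2.75 for LDOX.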

How the results depend on the processing

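Of 161 values of the 9 genes with no group at the floor, 76 passed the threshold. None of the 116 values that passed or were at least 0.4 in size changed sign in any alternative, while 21 of the 45 smaller ones did. Of the values that passed, 16 lost the call in some alternative, and 11 that had not passed gained one. RLE size factors and the absence of a filter changed no call. The replicate block raised the count higher in MH winter berries at E-L 38 to 2 (AOMT, 1.02) and changed no other call, the replicate numbers not pairing the libraries. In comparisons with V summer E-L 35, library-size scaling moved the median of all genes by up to -0.31.

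Without the fold criterion, the count of genes lower in MH than in V became 1 for summer berries (E-L 35, and again E-L 36) and for winter berries of stage E-L 36, and 2 for those of stage E-L 38. The count higher in winter berries became 6 in MH at E-L 38 and 5 in V at E-L 36, where 2 were lower. From E-L 35 to E-L 38 it became 1 lower in MH summer and 1 higher in V winter berries, and for the season difference between these stages in V 1 higher and 2 lower. Scaling by library size gave 1 lower in MH at summer E-L 35 and 1 higher at harvest in V summer berries. Limma with 1 added to FPKM gave 0 lower in MH at winter E-L 35, 0 lower in V winter berries at E-L 36, 1 smaller season difference at E-L 38, and 1 (MH winter) and 0 (V summer) higher at harvest. With 0.1 added it gave 1 and 1 at harvest, and 1 for the season difference between stages in MH. DESeq2 gave 1 higher at harvest in MH winter berries and 1 for that season difference. With only the compared libraries fitted, the count was 0 lower in V winter berries at E-L 36 and 0 higher at harvest in V summer berries. Leaving out the 3 libraries nearer to another stage, an alternative chosen after seeing the data, gave 0 lower in V winter berries at E-L 36, 1 larger season difference in MH at E-L 36 and 1 smaller one at E-L 38. The share of all genes called was computed only for the main fit with the fold criterion, so these counts have no background beside them. The causes were not tested.

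On leaving out each library in turn, the count lower in MH than in V ranged between 0 and 1 at summer E-L 36 and at winter E-L 35. Winter against summer, it ranged between 0 and 1 lower in MH at E-L 36, 1 and 4 higher in MH at E-L 38, and 0 and 1 lower in V at E-L 36 and E-L 38. Larger season differences in MH ranged between 1 and 2 (E-L 35) and between 1 and 4 (E-L 36), and smaller ones between 0 and 2 at E-L 38. At harvest it was 1 to 2 higher in V summer berries, with 2 to 3 smaller season differences in MH and 1 to 2 in V. The calls on AOMT and 3AT in V rest on low counts, at most 5.85 and 5 per library.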

Other observations

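Low counts of AOMT and GST4 were found in V libraries of both crops, and low counts of 3AT in V summer libraries alone. The numbers of libraries above 0 and above 3 counts were as follows. In V winter berries AOMT was above 0 in 1 of 9 libraries (0 to 0.57 counts), against 6 of 9 V summer libraries (0 to 5.85 counts), and above 3 counts in 0 of 9 V winter libraries, against 2 of 9 V summer libraries. 3AT was above 0 in 0 of 9 V winter libraries, against 8 of 9 V summer libraries (0 to 5 counts), and above 3 counts in 0 of 9, against 1 of 9. GST4 was above 0 in 8 of 9 V winter libraries (0 to 14 counts), against 9 of 9 V summer libraries (8 to 80 counts), and above 3 counts in 7 of 9, against 9 of 9. Over all genes the V summer libraries held 8471931 to 18606068 counts and the V winter libraries 5624449 to 11128820 counts, and the part of depth in these counts was not tested.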
